A study of Mus musculus with 4 samples.

Results

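Genes that mark macrophages and dendritic cells were compared between pancreatic islets of wild-type (WT) mice and of their GPR41 transgenic littermates (41 Tg in the labels, called Tg here). The set held 38 genes, chosen by name as lineage markers, Fc receptors, C-type lectins, complement and related genes, with earlier results of these data known. All 38 were found among the 22180 genes measured by a probeset that the platform annotation pairs with 1 symbol. Each of the 38 had exactly 1 such probeset, the group of probes that reads its transcript. Both groups were C57BL/6 mice of 5 to 6 months, per the labels, and only the Tg mice carried a GPR41 transgene whose promoter, sequence and copy number the labels do not give. GPR41 is a receptor for short-chain fatty acids, encoded in the mouse by Ffar3. Islets of both groups were held in RPMI medium after isolation, and 250 ng of their total RNA went onto each Affymetrix Mouse Gene 2.0 ST array. Each group had 2 arrays, which the titles call biological replicates without saying whether an array holds islets of 1 mouse or of several. A p-value below sets a group difference against the spread between these arrays, with information borrowed from all genes. Whether that spread is one between single mice is not known.

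Macrophages are the main resident immune cells of the islet, where they lie along blood vessels, take up material that beta cells release and present antigen. They depend on the receptor Csf1r for survival and on the transcription factor PU.1, encoded by Spi1, for their identity. Their surface carries receptors that fall into families: Fc receptors bind the constant part of antibodies, C-type lectins bind sugars of microbes and of dying cells, and many of both signal through small adaptors that carry an immunoreceptor tyrosine-based activation motif (ITAM). Dendritic cells share many of these genes and carry antigen to lymph nodes. Since whole islets were measured, more cells of a type and more RNA per cell cannot be told apart in any value below.

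The regulatory sequence shared by such genes is a purine-rich site bound by PU.1 and its relatives. Promoter windows of 300 bases, from 250 before to 50 after the start of the gene, were read from RefSeq (GRCm38.p6), and 28 of the 38 genes had one. No window was at hand for the other 10: Adgre1, C1qa, Cd14, Cd86, Clec4n, Csf1r, Itgb2, Lilrb4a, Spi1 and Tyrobp. The windows below belong to Fcgr2b and Ctss, which passed the test given later, to Fcgr4 and C1qc, which with Ctss held the longer form of the site, and to Cd163, the gene of the set whose mean was not higher in Tg. Each runs 5′ to 3′ on the strand of its gene, and capitals mark every match to GAGGAA or GGAAGT, read on either strand.
Fcgr2b, chr1:170976022-170976321, minus strand: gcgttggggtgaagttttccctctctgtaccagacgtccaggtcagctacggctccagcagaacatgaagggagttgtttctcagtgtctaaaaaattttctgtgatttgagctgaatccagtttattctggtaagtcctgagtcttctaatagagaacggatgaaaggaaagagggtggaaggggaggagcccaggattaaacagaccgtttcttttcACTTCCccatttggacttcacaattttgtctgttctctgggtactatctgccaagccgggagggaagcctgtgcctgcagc
Ctss, chr3:95526536-95526835, plus strand: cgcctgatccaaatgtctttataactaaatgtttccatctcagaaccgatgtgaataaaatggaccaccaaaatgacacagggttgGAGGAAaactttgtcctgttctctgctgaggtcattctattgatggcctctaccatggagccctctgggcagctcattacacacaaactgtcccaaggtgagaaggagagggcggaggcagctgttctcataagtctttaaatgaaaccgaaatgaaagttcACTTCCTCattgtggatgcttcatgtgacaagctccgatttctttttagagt
Fcgr4, chr1:171018676-171018975, plus strand: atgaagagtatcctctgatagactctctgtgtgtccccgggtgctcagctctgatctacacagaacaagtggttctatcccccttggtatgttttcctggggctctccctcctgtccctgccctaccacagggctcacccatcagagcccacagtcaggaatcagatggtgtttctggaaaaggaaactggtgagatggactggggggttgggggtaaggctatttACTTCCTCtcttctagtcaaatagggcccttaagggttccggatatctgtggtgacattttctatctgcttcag
C1qc, chr4:136892865-136893164, minus strand: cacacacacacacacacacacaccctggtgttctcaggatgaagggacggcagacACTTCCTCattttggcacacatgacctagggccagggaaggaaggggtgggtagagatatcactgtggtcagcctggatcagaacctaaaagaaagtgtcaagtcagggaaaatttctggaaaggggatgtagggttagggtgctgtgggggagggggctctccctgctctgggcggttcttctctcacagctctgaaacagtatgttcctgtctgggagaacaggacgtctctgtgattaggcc
Cd163, chr6:124304401-124304700, plus strand: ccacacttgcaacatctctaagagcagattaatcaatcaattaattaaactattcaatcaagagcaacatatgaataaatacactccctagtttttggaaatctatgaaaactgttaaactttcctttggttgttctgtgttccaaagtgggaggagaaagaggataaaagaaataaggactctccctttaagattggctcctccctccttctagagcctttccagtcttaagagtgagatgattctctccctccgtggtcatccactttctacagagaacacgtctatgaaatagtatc

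GAGGAA, the core of the PU.1 site, was present in 18 of the 28 windows (64.3%), against 28.3% of 27025 windows of all genes, and GGAAGT was present in 14 (50%) against 24.1%. Of the longer words, GAGGAAGT, in which both shorter words overlap, was present in 3 windows (10.7%), those of Ctss, Fcgr4 and C1qc, against 3.28% of all. In Ctss it overlapped the start of the gene, with its first base 2 bases before it, and in Fcgr4 it lay 24 bases before. The windows of Cd163 and Clec4a3 were among those with none of the 3 words. In Fcgr2b the GGAAGT match overlapped TTTCACTTC, a form joined by PU.1 and interferon regulatory factors, which 1 of the 28 windows and 0.522% of all windows held. A word of interferon response elements, GAAA and again GAAA after any 2 bases, was in 4 windows (14.3%, those of Aif1, Ctss, Cybb and Fcgr4) against 3.49% of all. The C/EBP palindrome TTGCGCAA was in 1 (3.57% against 0.185%), GAGGAAGT with an A before it and a G after it in 0 (0.437% of all), and TATAAA in 4 (14.3% against 14.2%). All 8 words were searched on both strands. The member windows had a median GC content of 46.8%, against 52.7% in all windows, and the words were chosen with the genes in mind. A match is a string of letters, and binding was not measured.

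The 4 arrays had medians of 6.43 to 6.47 on the log2 scale of the deposited values. Ffar3, the gene of GPR41, was at 7.09 and 6.47 in WT and 11.02 and 10.98 in Tg, as the labels have it. The islet endocrine list, with the hormone genes, had a mean of 11.96 and 11.80 in WT and 11.78 and 11.80 in Tg, high on all 4 as the labelled tissue requires. The WT arrays lay at opposite ends in markers of the exocrine pancreas, with WT replicate 1 lowest and WT replicate 2 highest. The mean of 7 acinar markers was 11.35 on WT replicate 1, 12.29 on WT replicate 2, 11.98 on Tg replicate 1 and 11.68 on Tg replicate 2, and that of 6 duct markers was 6.79, 7.93, 7.58 and 7.43 in the same order. Of all 22180 genes, 199 (0.897%) passed an adjusted p under 0.05 in limma's test with Benjamini-Hochberg adjustment, 149 (0.672%) of them higher in Tg.

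As a set, macrophage and dendritic cell genes were higher in Tg islets. The set was chosen with earlier results of these data known, so the shares of all genes beside it are a description and no test. Of the 38 genes, 37 had a higher mean in Tg, where 45.7% of all genes did, and in 34 both Tg arrays lay above both WT arrays, where 18.6% of all genes met that description. The median difference, Tg minus WT, was 0.66 on the log2 scale, against -0.02 over all genes, and the single differences ran from -0.04 for Cd163 to 1.43 for Clec4n. The mean of the 38 genes was 6.76 and 6.62 in WT and 7.39 and 7.34 in Tg, so the WT arrays lay close together and below both Tg arrays. In the fit over all genes, 4 of the 38 rose at an adjusted p under 0.05 and 0 fell, against 0.672% of all genes that rose: Fcgr2b, Clec4a3, Clec4n and Ctss. At an unadjusted p under 0.05, 28 were higher and 0 lower, where 6.13% of all genes were higher. Of these, 22 were at least 1.5-fold higher, which 2.35% of all genes were (3.48% counting either direction). By size alone, 10 of the 38 were at least 2-fold higher, as were 0.951% of all genes. With 2 arrays a group, the smallest two-sided p of an exact permutation test is 0.333, so each p given here comes from limma's model.

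**Figure D1:**
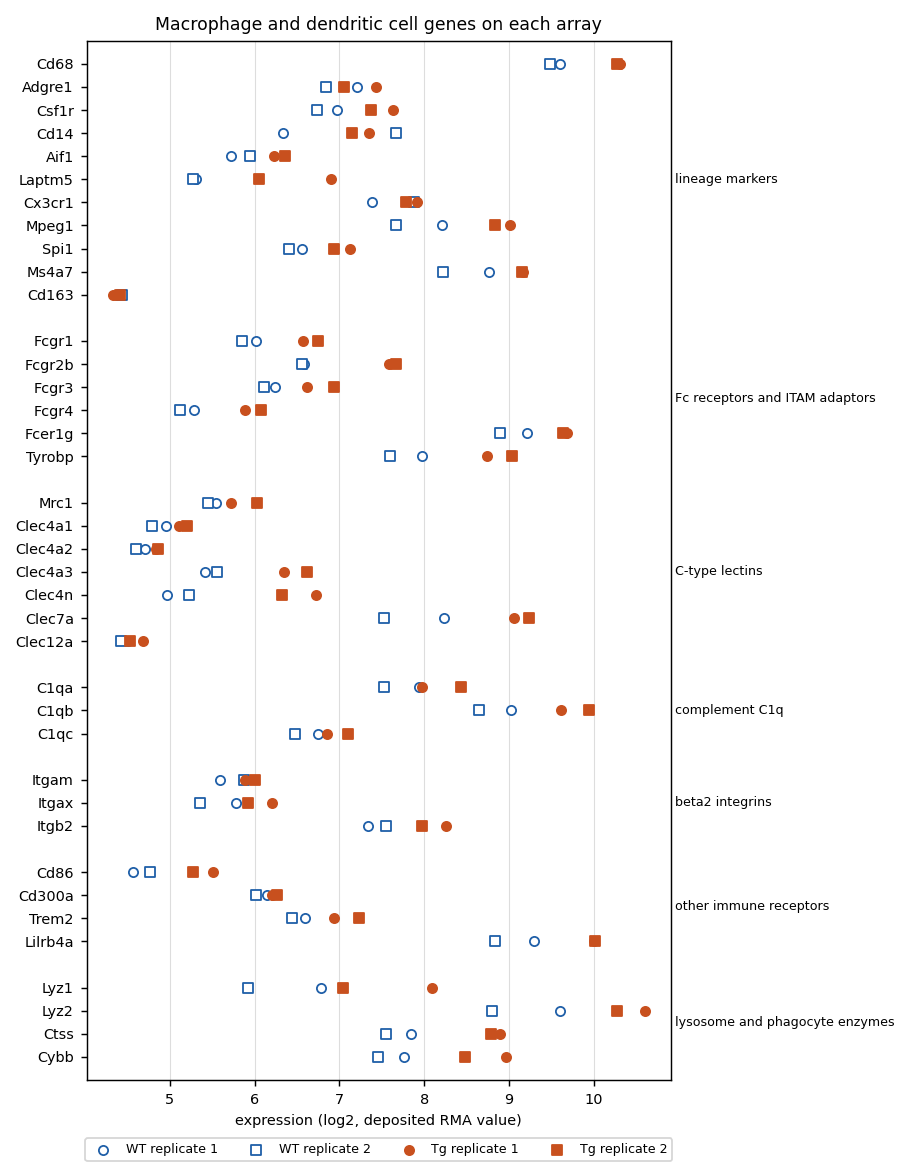
Deposited log2 value (x axis) of the 38 genes (y axis, grouped by role) on each of the 4 arrays; open blue symbols are WT, filled orange symbols are Tg, circles are replicate 1 and squares replicate 2. In 34 genes both filled symbols lie to the right of both open ones, and in Cd14, Cx3cr1, Adgre1 and Cd163 they overlap.

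The 4 calls depended on having both arrays of each group. With any single array left out, each of the 4 calls was lost, except that of Ctss without WT replicate 1. Those fits take the spread of a group's single array from the remaining group. With each gene's own spread in place of limma's moderated one, 0 of the 38 passed and 9 had an unadjusted p under 0.05. Of all 22180 genes, 0 passed in that fit and 1928 had such a p. The differences themselves lay between 1.01 and 1.10 for Fcgr2b, 0.99 and 1.30 for Ctss, 0.87 and 1.14 for Clec4a3 and 1.22 and 1.63 for Clec4n when an array was left out. Without WT replicate 1, the array lowest in exocrine markers, 35 of the 38 were higher and the median difference was 0.75. Without WT replicate 2, the array highest in them, these were 37 and 0.61.

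**Figure D2:**
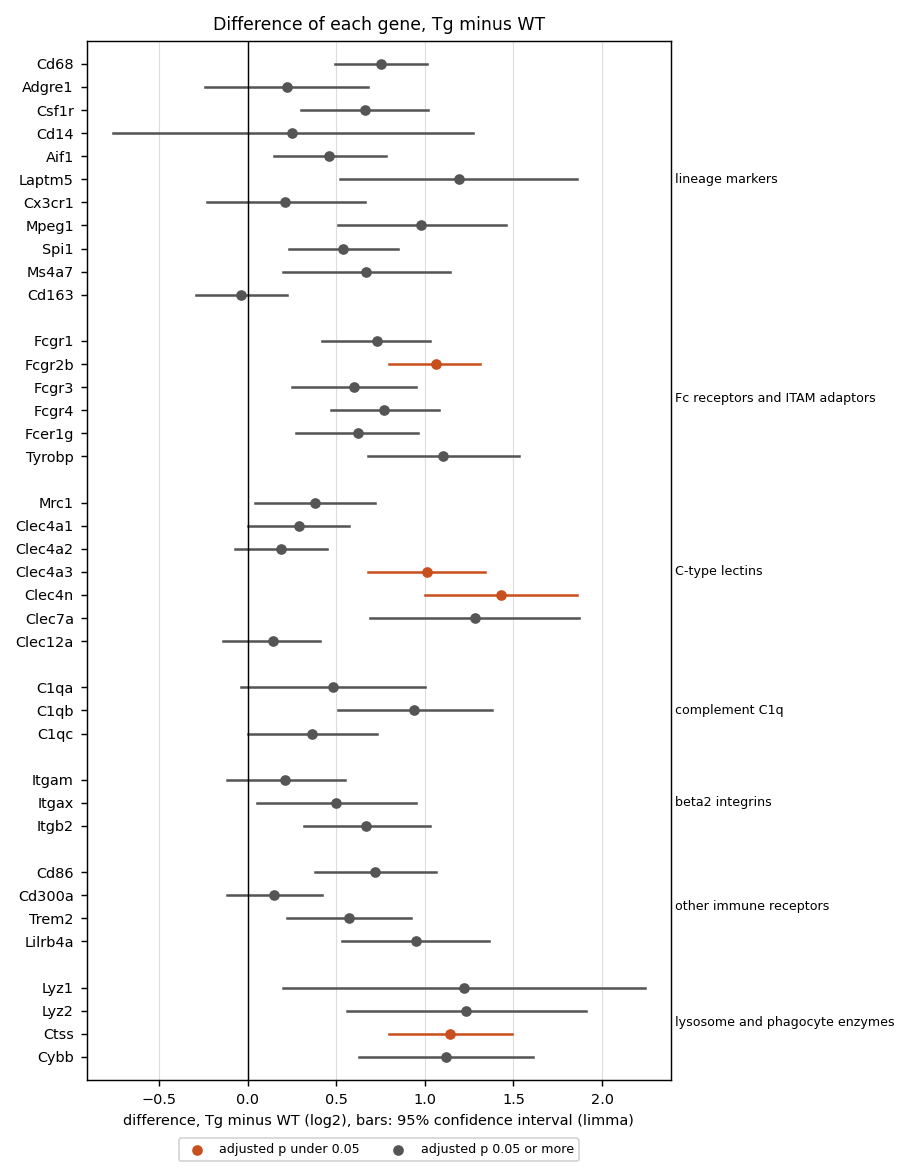
Difference of each of the 38 genes (y axis, grouped by role), Tg minus WT on the log2 scale (x axis); points are differences, bars are 95% confidence intervals from limma, and orange marks an adjusted p under 0.05. The 4 orange genes are Fcgr2b, Clec4a3, Clec4n and Ctss, and the interval of Cd14 (-0.76 to 1.27) is among the widest.

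Fc receptors and their ITAM adaptors were higher in Tg for 6 of 6 genes, with a median difference of 0.75 and no overlap of the groups in any, and 1 of the 6 passed the test. Fcgr2b, the inhibitory receptor for IgG, was at 6.58 and 6.56 in WT and 7.58 and 7.67 in Tg. Replicates of either group differed by less than 0.1 and the groups by 1.06, so Fcgr2b rose 2.08-fold (SE 0.10, adjusted p = 0.0208 by limma). Fcgr2b is also the Fc receptor of B cells, whose markers were higher in Tg as well, and their part in this result was not tested. The activating receptors for IgG were higher without passing. Fcgr4 was at 5.28 and 5.12 in WT and 5.88 and 6.07 in Tg, a difference of 0.77 (SE 0.12, adjusted p = 0.0694). The high-affinity receptor gene Fcgr1 was at 6.01 and 5.85 in WT against 6.57 and 6.75 in Tg (difference 0.73, SE 0.12, adjusted p = 0.0793). For Fcgr3, a low-affinity receptor, the values were 6.24 and 6.11 against 6.62 and 6.93 (difference 0.60, SE 0.14, adjusted p = 0.176). In each of these 3 genes the lower Tg array stood above the higher WT array. Fcgr2b, Fcgr4 and Fcgr3 are direct neighbours on chromosome 1 in the RefSeq order, with 0 coding genes between them, and Fcgr1 lies on chromosome 3.

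The adaptors that activating receptors need on the cell surface were higher as well, without passing. Tyrobp, which encodes DAP12, was at 7.97 and 7.60 in WT and 8.74 and 9.04 in Tg, a 2.15-fold higher mean (difference 1.10, SE 0.17, adjusted p = 0.0664). It passed the threshold in 3 of 13 alternative settings. Fcer1g, the common gamma chain of activating Fc receptors, was at 9.21 and 8.89 in WT and 9.69 and 9.64 in Tg (difference 0.62, SE 0.14, adjusted p = 0.162). The difference of Fcgr2b, the inhibitory receptor, was 1.06. It lay above those of Fcgr4 (0.77), Fcgr1 (0.73), Fcgr3 (0.60) and Fcer1g (0.62), and below that of Tyrobp (1.10). Whether the members differ from each other was not tested.

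C-type lectins were higher in Tg for 7 of 7 genes without overlap of the groups, but unevenly, with differences from 0.14 to 1.43 and a median of 0.38. Clec4n, which encodes the fungal pattern receptor Dectin-2, was at 4.96 and 5.22 in WT and 6.72 and 6.32 in Tg. It rose 2.69-fold (difference 1.43, SE 0.17, adjusted p = 0.0347 by limma), the largest difference of the 38 genes. Its WT values lay near the first quartile of all probesets, which was 4.93 and 4.96 on those arrays. Clec4a3, of the dendritic cell immunoreceptor genes, was at 5.41 and 5.55 in WT and 6.35 and 6.62 in Tg, and rose 2.01-fold (SE 0.13, adjusted p = 0.0426). Clec7a, which encodes the beta-glucan receptor Dectin-1, was at 8.23 and 7.52 in WT and 9.06 and 9.24 in Tg. Its difference of 1.28 (SE 0.24) had an adjusted p of 0.103, with a gap of 0.71 between the WT arrays, and it was 0.92 without WT replicate 2 and 1.64 without WT replicate 1, where it passed (adjusted p = 0.0295).

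The other lectin genes had smaller differences and did not pass. Mrc1, the mannose receptor of tissue macrophages, was at 5.54 and 5.45 in WT and 5.72 and 6.03 in Tg (difference 0.38, interval 0.04 to 0.72). Clec4a1 was at 4.95 and 4.79 against 5.11 and 5.20 (0.29, SE 0.11). Clec4a2, which encodes the inhibitory receptor DCIR, was at 4.70 and 4.60 against 4.83 and 4.86 (0.19), and Clec12a, another inhibitory lectin, at 4.51 and 4.42 against 4.68 and 4.53 (0.14). Clec4a2 and Clec12a lay below the first quartile of all probesets (4.93 to 4.98) on all 4 arrays. Clec4a1, Clec4a3, Clec4a2 and Clec4n lie in 1 cluster on chromosome 6, with Clec4a1 and Clec4a3 side by side, and their differences were 0.29, 1.01, 0.19 and 1.43. Whether probes of these related genes, or of the Fc receptor genes, bind each other's RNA was not tested.

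The 3 genes of complement C1q, the antibody-binding subunit that starts the classical pathway and that macrophages make in tissues, were higher in Tg without passing. C1qb was at 9.03 and 8.65 in WT and 9.62 and 9.94 in Tg (difference 0.94, SE 0.18, adjusted p = 0.103). C1qa was at 7.94 and 7.52 in WT and 7.98 and 8.44 in Tg (0.48, SE 0.21), and C1qc at 6.75 and 6.48 in WT and 6.85 and 7.10 in Tg (0.36, SE 0.15). In both, Tg replicate 1 lay just above WT replicate 1, and all 3 genes were higher on Tg replicate 2 than on Tg replicate 1. The genes are direct neighbours on chromosome 4, with 0 coding genes between them. Without Tg replicate 2 the median of the 3 was 0.25 in place of 0.48, and without Tg replicate 1 it was 0.71.

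Lineage markers were split. Of 11 genes, 10 had a higher mean in Tg, 7 of them without overlap, the median difference was 0.54 and 0 passed the test. Cd68, a lysosomal glycoprotein of macrophages, was at 9.60 and 9.49 in WT and 10.31 and 10.27 in Tg. Its difference of 0.75 (SE 0.11) had an adjusted p of 0.0525 and passed in 4 of 13 alternatives, with a range of 0.69 to 0.80. Mpeg1, the pore-forming protein perforin-2, was at 8.21 and 7.67 in WT and 9.01 and 8.84 in Tg (difference 0.98, SE 0.19, adjusted p = 0.115). Csf1r, the receptor for CSF1 and IL-34, was at 6.97 and 6.73 in WT and 7.63 and 7.37 in Tg (0.66, SE 0.15, adjusted p = 0.157). Spi1, the gene of PU.1, was at 6.56 and 6.40 in WT and 7.12 and 6.93 in Tg (0.54, SE 0.12, adjusted p = 0.170). For these 4 genes both Tg arrays lay above both WT arrays.

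Ms4a7, a membrane protein of macrophages, was at 8.76 and 8.22 in WT and 9.17 and 9.15 in Tg (difference 0.67, SE 0.19), and Aif1, the calcium-binding protein Iba1, at 5.72 and 5.94 against 6.23 and 6.36 (0.46, SE 0.13). Laptm5, a lysosomal membrane protein of blood cells, was at 5.31 and 5.27 in WT but 6.90 and 6.05 in Tg. Its difference of 1.19 (SE 0.27, adjusted p = 0.163) was 1.61 without Tg replicate 2 and 0.76 without Tg replicate 1. Laptm5 is expressed by lymphocytes as well, and the mean levels of the B cell and T cell lists were also highest on Tg replicate 1.

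The remaining lineage markers overlapped between the groups. Adgre1, which encodes the surface antigen EMR1 that is commonly used to stain mouse macrophages, was at 7.21 and 6.84 in WT and 7.43 and 7.05 in Tg, a difference of 0.22 with an interval of -0.24 to 0.68. Cx3cr1, the fractalkine receptor of monocytes and of many tissue macrophages, was at 7.39 and 7.88 in WT and 7.91 and 7.79 in Tg (0.21, interval -0.23 to 0.66). Its difference was -0.036 without WT replicate 1. Cd14, the lipopolysaccharide co-receptor, was at 6.33 and 7.67 in WT and 7.35 and 7.15 in Tg, so that the WT arrays held both its lowest and its highest value. Its difference of 0.25 (SE 0.41) was -0.41 without WT replicate 1 and 0.92 without WT replicate 2. The 4 arrays had the same order in the acinar enzyme gene Cel, which was at 12.00, 13.33, 13.11 and 12.56, and the part of exocrine tissue in the values of Cd14 was not tested. Cd163, the scavenger receptor for haemoglobin bound to haptoglobin, was at 4.38 and 4.43 in WT and 4.33 and 4.41 in Tg, below the first quartile on all 4 arrays (difference -0.04, interval -0.29 to 0.22). The intervals of Adgre1 and Cd14 reach past the difference of Csf1r, and none of the 4 genes is shown to be unchanged.

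Integrin genes of phagocytes were higher in Tg for 3 of 3 genes, with 0 past the test. Itgb2, the beta 2 chain that all leukocyte integrins of this kind share, was at 7.34 and 7.55 in WT and 8.26 and 7.97 in Tg (difference 0.67, SE 0.15, adjusted p = 0.145). Itgax, the CD11c chain of dendritic cells and of islet macrophages, was at 5.78 and 5.35 in WT and 6.21 and 5.92 in Tg (0.50, SE 0.18). Itgam, the CD11b chain of myeloid cells, was at 5.59 and 5.87 in WT and 5.88 and 6.00 in Tg (0.21, SE 0.14), where the lower Tg array lay just above the higher WT array. The genes of the alpha chains are neighbours on chromosome 7, and Itgb2 is expressed by lymphocytes too.

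Other immune receptors were higher in Tg for 4 of 4 genes without overlap (median 0.65), with 0 past the test. Lilrb4a, an inhibitory receptor of myeloid cells, was at 9.29 and 8.83 in WT and 10.00 and 10.01 in Tg (difference 0.95, SE 0.17, adjusted p = 0.0929). Cd86, a costimulatory ligand that T cells read on antigen-presenting cells, was at 4.57 and 4.77 in WT and 5.51 and 5.27 in Tg (0.72, SE 0.14, adjusted p = 0.108), and its WT values lay below the first quartile. Trem2, a lipid receptor that signals through DAP12, was at 6.59 and 6.44 in WT and 6.93 and 7.23 in Tg (0.57, SE 0.14, adjusted p = 0.199). Cd300a, an inhibitory receptor for phospholipids, was at 6.15 and 6.02 in WT and 6.21 and 6.26 in Tg (0.15, interval -0.12 to 0.42).

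Enzymes of the phagocyte lysosome and oxidase gave the highest median of the roles, 1.18, with 4 of 4 genes at least 2-fold higher. Ctss, the lysosomal protease cathepsin S that trims the invariant chain of MHC class II, was at 7.85 and 7.55 in WT and 8.90 and 8.79 in Tg, and rose 2.21-fold (difference 1.14, SE 0.14, adjusted p = 0.0345 by limma). Cybb, the catalytic subunit of the phagocyte NADPH oxidase, was at 7.76 and 7.45 in WT and 8.97 and 8.48 in Tg (1.12, SE 0.20, adjusted p = 0.0921). Lyz2, the lysozyme gene of macrophages, was at 9.60 and 8.80 in WT and 10.60 and 10.27 in Tg (1.23, SE 0.27, adjusted p = 0.158). Its neighbour Lyz1, whose sequence is close to that of Lyz2, was at 6.78 and 5.92 in WT and 8.09 and 7.04 in Tg (1.22, SE 0.41, adjusted p = 0.344). Both lysozymes were higher on replicate 1 of each group, by 0.80 and 0.33 for Lyz2 and by 0.86 and 1.05 for Lyz1. Whether probes of either gene also bind RNA of the other was not tested, so their values are uncertain as separate measurements.

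**Figure D3:**
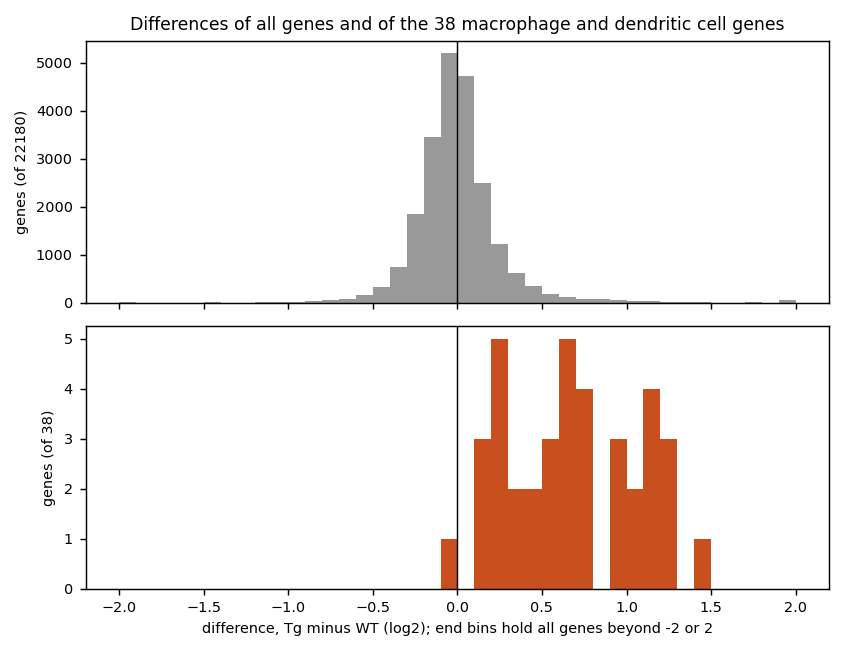
Number of genes (y axis) by difference, Tg minus WT in log2 units (x axis, bins of 0.1), for all 22180 genes in grey above and for the 38 macrophage and dendritic cell genes in orange below. All genes centre on -0.02, and 37 of the 38 lie to the right of 0.

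The replicates of a group did not differ in the same direction in all roles. In WT, 29 of the 38 genes were higher on replicate 1, with a median gap of 0.25 between the arrays, where 55.5% of all genes were higher on it and the median gap was 0.14. In Tg, 19 were higher on each replicate and the median gap was 0.20. By role, 9 of 11 lineage markers and 4 of 4 enzymes were higher on Tg replicate 1, while 5 of 6 Fc receptors and adaptors, 5 of 7 C-type lectins and 3 of 3 C1q genes were higher on Tg replicate 2. This split was not tested. Beside it, among leukocyte markers, 13 of 14 pan-leukocyte and 8 of 11 B and plasma cell genes were higher on Tg replicate 1, where 48.5% of all genes were. Outside the leukocytes, 12 of 12 endothelial, 6 of 7 acinar, 6 of 12 mesenchymal and 3 of 11 endocrine markers were higher on that array.

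**Figure D4:**
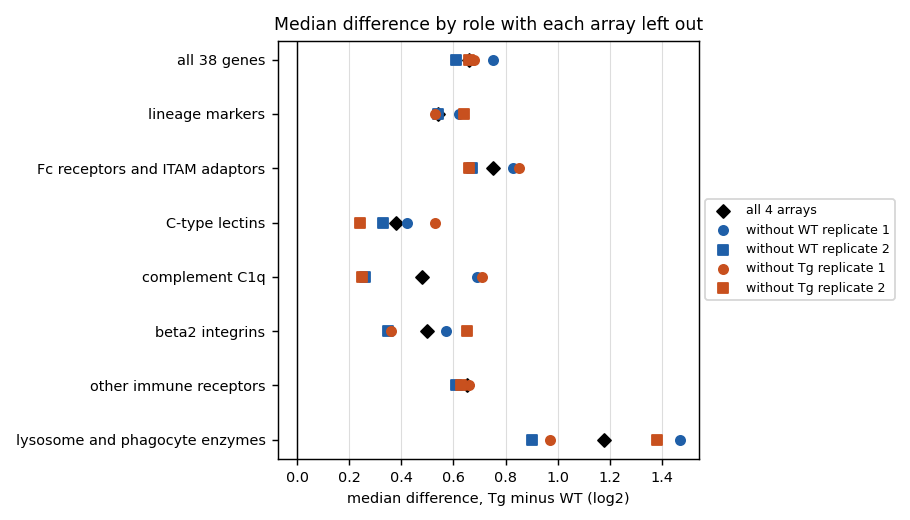
Median difference, Tg minus WT in log2 units (x axis), over all 38 genes and over each role (y axis), with all 4 arrays (black diamonds) and with each array left out (blue for a WT array, orange for a Tg array). Each median stays above 0, and that of C-type lectins runs from 0.24 to 0.53.

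Other genes of the same pathways gave smaller median differences. Of 18 genes of ITAM and inhibitory signalling, 11 were higher in Tg and 0 passed the test (median 0.11). Those with the smallest p were the phosphatase gene Inpp5d (0.75, SE 0.20) and the adaptor gene Hcst (0.39, SE 0.11). Other Fc receptors had 4 of 9 genes higher and 0 past the test (median -0.03), with the epithelial antibody transporter Pigr at -0.48 and the B cell gene Fcrla at 1.01. Among 17 other C-type lectins 13 were higher and 0 passed (median 0.13), with Clec4d at 0.81 (SE 0.16) and Clec5a at 0.53 (SE 0.11). Other complement genes had 11 of 19 higher and 0 past the test (median 0.07). Those with the smallest p were C3ar1, a receptor for the C3 fragment on macrophages (0.71, SE 0.12), and Cfp, the properdin gene (0.74, SE 0.15).

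Growth and lineage factors of macrophages were higher in 15 of 16 genes (median 0.35), and 1 passed. Csf2rb, the shared receptor chain for GM-CSF, IL-3 and IL-5, was at 5.06 and 5.74 in WT and 7.46 and 7.04 in Tg, and rose 3.59-fold (difference 1.84, SE 0.25, adjusted p = 0.0480 by limma). It kept the call only without WT replicate 2 when 1 array was left out. The ligands of Csf1r, named after their values were seen, differed by 0.17 (Csf1, SE 0.11) and 0.16 (Il34, SE 0.17). In the list of NADPH oxidase and lysosome genes 16 of 18 were higher (median 0.24). Gpnmb, a glycoprotein of lysosome-rich macrophages, was at 8.75 and 8.58 in WT and 9.87 and 9.85 in Tg, and rose 2.30-fold (SE 0.11, adjusted p = 0.0186), a call kept without WT replicate 1 and lost without each other array.

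Markers of narrower myeloid types had small median differences. Of 12 dendritic cell markers 10 were higher (median 0.20) and Ccr7, the receptor that guides mature dendritic cells and lymphocytes to lymph nodes, rose from 7.01 and 6.59 to 8.41 and 8.19 (difference 1.5, SE 0.17, adjusted p = 0.0330). Without WT replicate 1 it passed as well, but not without each other array (adjusted p from 0.0645 to 0.189). Of genes named after their values were seen, the chemokine gene Ccl22 differed by 1.77 (SE 0.26, adjusted p = 0.0575), while Flt3 (0.10) and Zbtb46 (-0.07), which define conventional dendritic cells, were near 0. Of 9 monocyte markers 7 were higher (median 0.08), and Plac8, which lymphocytes express too, rose (1.02, SE 0.12, adjusted p = 0.0334), without keeping the call when any array was left out. The 15 genes of tissue macrophage subsets had a median of 0.11 with 10 higher and 0 past the test. Lyve1, of perivascular macrophages and lymphatic vessels, was at 9.22 and 9.37 in WT and 8.50 and 8.60 in Tg (-0.75, SE 0.11, adjusted p = 0.0607), and this lower level passed in 3 of 13 alternative settings. Apoe, the lipid carrier apolipoprotein E, differed by 0.84 (SE 0.15, adjusted p = 0.0890). In all, 6 of the 15 were higher without overlap, 1 was lower without overlap and 8 overlapped. On all arrays 5 of the 15 lay below the first quartile, as did 3 of the 9 monocyte and 1 of the 12 dendritic cell markers.

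Markers of leukocytes in general, which include myeloid cells, and of lymphocytes were higher in the same arrays. All 14 pan-leukocyte genes were higher in Tg (median 1.07), and Cd53, Cytip, Coro1a and Cd48 passed, with differences of 1.74, 1.67, 0.94 and 0.99. With each array left out in turn, Cd53 kept the call only without WT replicate 1, Cytip without either WT array, and Coro1a and Cd48 in no case. The list's mean was 6.63 and 6.51 in WT and 7.96 and 7.39 in Tg. Of 11 B and plasma cell markers 10 were higher (median 1.01) and Mzb1 rose (1.12, SE 0.11, adjusted p = 0.0211), a call lost without any 1 of the 4 arrays. The list's mean was 6.68 and 6.89 in WT and 8.08 and 7.69 in Tg. Of genes named after their values were seen, Cd79b of the B cell receptor was at 7.39 and 7.20 in WT and 9.67 and 8.53 in Tg. Jchain, the joining chain of plasma cell antibodies, was at 4.86 and 5.88 in WT and 8.47 and 10.06 in Tg, the largest difference of the list (3.89, SE 0.56, adjusted p = 0.0560). Sdc1, a surface marker of plasma cells and of epithelia, was lower in Tg by mean, with overlap (-0.37, SE 0.39). None of the 3 passed, and the Tg array that was higher was replicate 1 for Cd79b and replicate 2 for Jchain. Of 16 T and NK cell markers 14 were higher (median 0.24) with 0 past the test, among them Cd3g (1.25) and Cd3e (0.90), and the list's mean was 5.60 and 5.45 in WT and 5.95 and 5.85 in Tg. B cells express Fcgr2b, Ctss, Cd86, Spi1, Laptm5 and Itgb2 as well, so these genes are not particular to myeloid cells, and the part of B cells in their values was not tested.

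Granulocyte lists had median differences near 0. Of 14 neutrophil genes 7 were higher and 7 lower (median 0.02), with Cxcr2 at -0.33 and Camp at 0.26. On all arrays 5 of the 14 lay below the first quartile, among them S100a8 and Ly6g. Of 9 mast cell and basophil genes 6 were higher (median 0.04), with Kit at -0.51 and Mcpt4 at 0.26, and 6 lay below the first quartile on all arrays. Endothelial markers were higher for 12 of 12 genes (median 0.40; Cd34 0.83, Cdh5 0.62) and mesenchymal markers for 12 of 12 (median 0.31; Dcn 1.79, Pdgfrb 0.38), and 0 of either passed. Acinar (median 0.02; Cel 0.17, Prss1 -0.10), duct (-0.10) and endocrine lists (-0.11; Sst -0.32, Isl1 -0.25) did not share the direction of the 38 genes, although the duct list held Cftr, which rose (2.30, SE 0.23, adjusted p = 0.0211), a call lost without either Tg array. Only 1 red blood cell marker had a probeset with a single symbol, Slc4a1 (0.09). Probesets naming Hba-a1, Hbb-bs or Alas2 together with other genes were left out of the list, and their differences ran from -0.3 to 0.15.

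**Figure D5:**
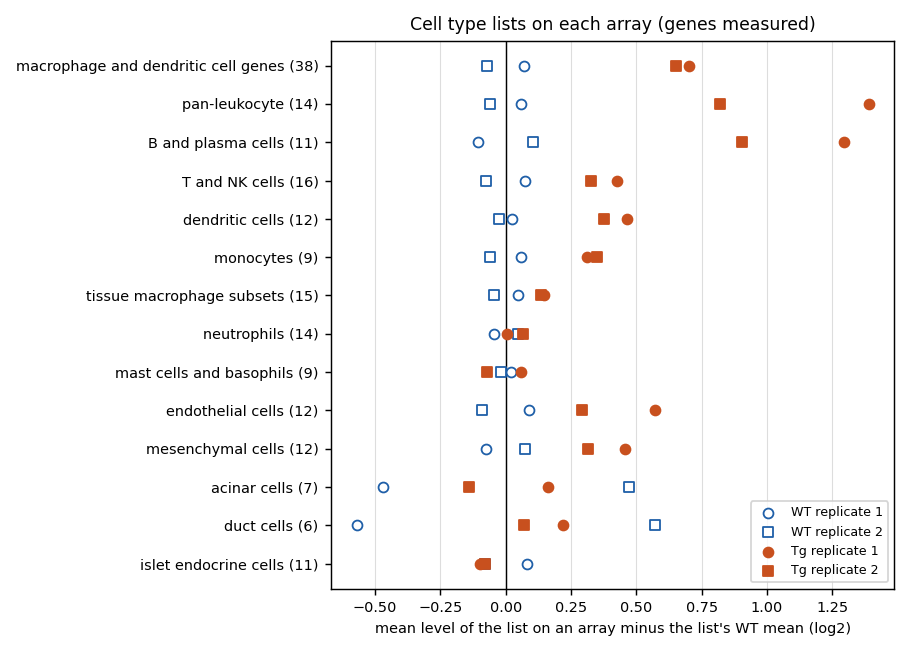
Mean level of each list on each array minus that list's mean over the WT arrays, in log2 units (x axis), for the 38 macrophage and dendritic cell genes and for cell type lists (y axis, genes measured in brackets); open blue symbols are WT and filled orange symbols are Tg. The 38 genes and the pan-leukocyte and B cell lists lie furthest to the right on both Tg arrays. The T and NK, dendritic, monocyte, tissue macrophage, endothelial and mesenchymal lists lie to the right by less. Neutrophil and mast cell lists stay near 0, and acinar and duct lists differ most between the WT arrays.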

How the data were processed

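Total RNA of isolated islets was measured on 4 arrays, 2 per group. The authors deposited log2 values for 27037 probesets, made with Partek and RMA (a method that corrects background, quantile-normalizes and summarizes probes), per the submitters' processing notes, which give no version, and the build behind the probesets was not used here. RMA values have no depth, and differences of dim probesets can be compressed. Probesets were named from the platform annotation: 23521 had 1 symbol, 1814 several (not used for genes) and 1702 none, and the brightest probeset stood for a gene, which left 22180 genes. Tg was compared with WT with limma 3.58.1 in R 4.3.3 (lmFit and eBayes, residual df 2, prior df 3.76), with Benjamini-Hochberg adjustment over all 22180 genes and a threshold of 0.05. SE and 95% intervals come from that fit, which was tested on simulated data. The 38 genes, their 7 roles and 20 further lists (264 symbols, 239 measured) were chosen with earlier results of these data known. Every member is named, and from each further list the genes past the threshold or, with none, the 2 with the smallest p. Alternatives covered the probeset rule, a level filter, normalization, the variance model, the replicate number as a block, and each array left out.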

Additional observations from a re-analysis of the deposited data

Results flagged for a closer look

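A probeset that the annotation pairs with both Lilr4b and Lilrb4a was left out of the genes because it has no single symbol. Its values were 5.85 and 5.54 in WT and 6.60 and 6.37 in Tg, a difference of 0.79 (SE 0.15, adjusted p = 0.113 by limma over 27037 probesets). Lilrb4a's own probeset had a difference of 0.95. It is listed because it is a signal outside the measurements compared, above the level in both WT arrays.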

How the results depend on the processing

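With 2 arrays a group, calls depended on how the spread was estimated, and the direction of most genes did not. A trended variance and robust prior put 347 genes and 9 of the 38 past the threshold. Without moderation 0 genes and 0 of the 38 passed (1928 and 9 at an unadjusted p under 0.05). At that p, 9 of the 38 were at least 1.5-fold different, where 1.88% of all genes were. With the replicate number as a block, 24 genes and 0 of the 38 passed (2279 and 26 unadjusted). The numbers are those of the sample titles, since the source names share none between groups, and they are not shown to pair the samples (correlation of replicate differences -0.063 over genes). The level filter kept 22 of the 38, with 19 not overlapping, and medians of roles moved because dimmer members were dropped. Of C-type lectins it kept only Clec7a (1.28), and of integrins only Itgb2 (0.67). Medians were 1.06 for Fc receptors and adaptors, with Fcgr2b, Fcer1g and Tyrobp kept, and 0.76 for other receptors. Clec4a3 and Clec4n were dropped, and the 4 members past the threshold were Cd68, Fcgr2b, Tyrobp and Ctss, where 2.12% of the 11090 genes kept passed. With each array left out, genes past the threshold ranged from 38 to 135 and members from 0 to 5, those at least 1.5-fold different from 18 to 25, and those not overlapping from 34 to 36. With a single array left in a group, lack of overlap is easier to meet for any gene. The range of 34 to 36 therefore adds no evidence beside the 34 of the main fit. The share of all genes at least 1.5-fold different was also higher in each of these fits than in the main fit. Medians ranged from 0.61 to 0.75 over the 38, 0.53 to 0.64 for lineage markers, 0.66 to 0.85 for Fc receptors, 0.24 to 0.53 for lectins, 0.25 to 0.71 for C1q, 0.35 to 0.65 for integrins, 0.61 to 0.66 for other receptors and 0.90 to 1.47 for enzymes. Directions reversed for Cd14 (-0.414 to 0.92), Cx3cr1 (-0.036 to 0.46), Cd163 (-0.077 to 0.004), Cel (-0.499 to 0.832), Prss1 (-0.558 to 0.353) and Slc4a1 (-0.079 to 0.26). The cause was not tested. For the 38, only renormalization or leaving out an array could change a difference. Each had a single probeset, so the probeset settings could not, and the filter, variance and block settings keep the difference as it is. Among members not called, 410 of 428 gene values under the alternatives kept direction and side of the threshold, 15 passed and 3 reversed. Among those called, 27 of 50 kept the call and 23 lost it, with 0 reversed. Among called genes of the other lists, 73 of 126 kept the call and 53 lost it.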
